A study of Mus musculus with 16 samples.

Results

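The genes examined were those of mouse zinc finger proteins whose symbol is Zfp followed by digits alone. Of 31053 genes in the deposited expression table, 343 carry such a symbol, and 227 of these reached a normalised read count of 10 or more in at least 4 of the 16 samples. These 227 Zfp genes were followed through the differentiation of C2C12 cells, a mouse myoblast line that fuses into multinucleated myotubes in culture. Messenger RNA was sequenced from WT myoblasts, WT myotubes, Fam134bKO myoblasts and Fam134bKO myotubes, with 4 samples in each group. Fam134b encodes a receptor that directs pieces of the endoplasmic reticulum to lysosomes. The sample descriptions call the WT cells Control. The knockout was made with CRISPR-Cas9 and paired guide RNAs delivered by lentivirus, followed by antibiotic selection, and a choice of single clones is not described in the sources used here. All cells were grown in medium with 10% serum and differentiated spontaneously once confluent, so no differentiation agent sets the groups apart. The labels call the 4 samples of a group biological replicates without naming separate cultures, and p-values therefore measure the spread between these samples. In the fit used below, that spread is pooled for each gene over all 4 groups, including groups not compared.

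Zinc finger proteins of this kind hold a zinc ion between pairs of cysteines and histidines in each finger, and rows of fingers read DNA or RNA sequence. Many also carry a KRAB box, through which they recruit the co-repressor Trim28 and silence transposable elements, imprinted loci and other chromatin. Others act without a KRAB box, as activators, co-repressors, RNA-binding proteins or ubiquitin ligases, and the Zfp symbol also covers some proteins with a different kind of finger.

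The threshold on level chose the genes, and no comparison between groups was used to choose them. Just inside it were Zfp688 and Zfp101, whose count in the sample ranked 4 from the top was 10.0 and 10.2, and just outside were Zfp182 and Zfp93 with 9.62 and 9.497. Of the 116 genes below the threshold, 30 had 0 reads in all samples. The threshold was met in all 16 samples by 145 Zfp genes. Another 17 reached it only with the samples of the group in which they were highest, so a difference from that group was partly built in for them. Zfp57, Zfp526, Zfp937, Zfp184, Zfp13 and Zfp521 are among these 17, and their values below are descriptions.

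The name of the family was checked against gene models. Coding sequences of GENCODE M21 could be read for 226 of the 227 genes, and 220 of them held at least 1 finger with the spacing of cysteines and histidines that defines the C2H2 class. The number of such fingers ranged from 0 to 36 with a median of 10. The 6 genes without a match were Zfp36, whose fingers are of the CCCH type, and Zfp330, Zfp365, Zfp503, Zfp703 and Zfp839. Letters of a KRAB box were found in 107 proteins, which had a median of 12 fingers, while the 119 proteins without these letters had a median of 7. The genes lay on 20 chromosomes, 56 of them on chromosome 7, and 97 sat in 13 clusters of at least 5 with gaps of at most 1 Mb. More than 10% of the stretches of 31 bases in the transcripts were shared with another gene in 30 cases, and exons of 31 overlapped those of another coding gene. Reads of such genes may have been split or lost in counting, and the share is given where one of them is described.

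Between 1484750 and 3287461 reads per sample were counted on genes, and the Zfp genes together took 0.495% to 0.575% of them. The median Zfp gene was covered by 17 to 42 reads per sample, so many of these genes sit near the counting limit. Fam134bKO myotubes 2 and 4 had few reads, 1790524 and 1484750, and 8 Zfp genes had 0 reads in each of them. Deviations of samples from their group mean on the log2 scale were widest in Fam134bKO myotubes. Their root mean square over all genes tested averaged 0.561 there, against 0.294 in WT myoblasts, 0.356 in WT myotubes and 0.320 in Fam134bKO myoblasts. Fam134b itself averaged 207 ± 42 (SD, n = 4) normalised reads in WT myoblasts and 27.5 ± 5.49 in Fam134bKO myoblasts, and 232 ± 61.6 in WT myotubes and 41.8 ± 14 in Fam134bKO myotubes. The summed level of 9 muscle markers lay between 2097 and 2985 in WT myoblasts, 22352 and 31659 in WT myotubes, 227 and 298 in Fam134bKO myoblasts, and 9466 and 11424 in Fam134bKO myotubes. Actc1, Ckm, Myh3, Myog and Tnnc2 were at or under 3 reads in each Fam134bKO myoblast sample. The sum of 7 cycling cell markers lay between 3629 and 4483, 1864 and 3195, 2860 and 5113, and 809.8 and 1433 in the same order of groups. The 6 adipocyte and 4 endothelial markers were each at or under 3 reads in every sample. Of 5 macrophage markers, 2 were above 3 reads in some sample (sums from 4.00 to 24.2), and of 6 markers of cartilage or bone only Sox9 was. Muscle and cycling markers thus moved along with the comparisons below, and their part in the Zfp results was not tested. Fewer cells of one kind and less RNA per cell cannot be told apart in these bulk samples.

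The share of Zfp genes called changed was below that of all genes tested in each comparison, a difference that was not itself tested. The part of low read counts in it, with a median of 17 to 42 reads per Zfp gene in a sample, was not tested either. A lower share called is therefore not a measure of smaller changes. A call is a Benjamini-Hochberg adjusted p below 0.05 in a limma fit of log2(normalised count + 1) across all 10767 genes tested, and fold changes are on that scale, which understates the change of low genes. From WT myoblasts to WT myotubes, 14 of 227 Zfp genes were called (6.17%, against 23.0% of all genes tested), 9 higher and 5 lower (13.8% and 9.16% of all genes). From Fam134bKO myoblasts to Fam134bKO myotubes, 39 were called (17.2% against 33.4%), 20 higher and 19 lower (17.3% and 16.1% of all genes). Between Fam134bKO and WT myoblasts, 16 were called (7.05% against 15.8%), 7 higher and 9 lower (7.26% and 8.5% of all genes). Between Fam134bKO and WT myotubes, 24 were called (10.6% against 23.4%), 8 higher and 16 lower (9.74% and 13.7% of all genes). The 17 genes that passed only with their highest group gave 1, 1, 0 and 4 of the calls in these 4 comparisons. Between myotubes that was 23.5% of them, against 9.52% of the other 210, and such differences were partly built in. The courses of differentiation differed between genotypes, by the interaction term, for 1 Zfp gene (0.441% against 3.45%), where 1.97% of all genes were called higher and 1.48% lower. The median log2 fold changes of the Zfp genes were 0.05, -0.05, -0.02 and -0.07 in the 4 comparisons of groups, beside -0.01, -0.02, -0.01 and -0.07 for all genes tested.

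**Figure D1:**
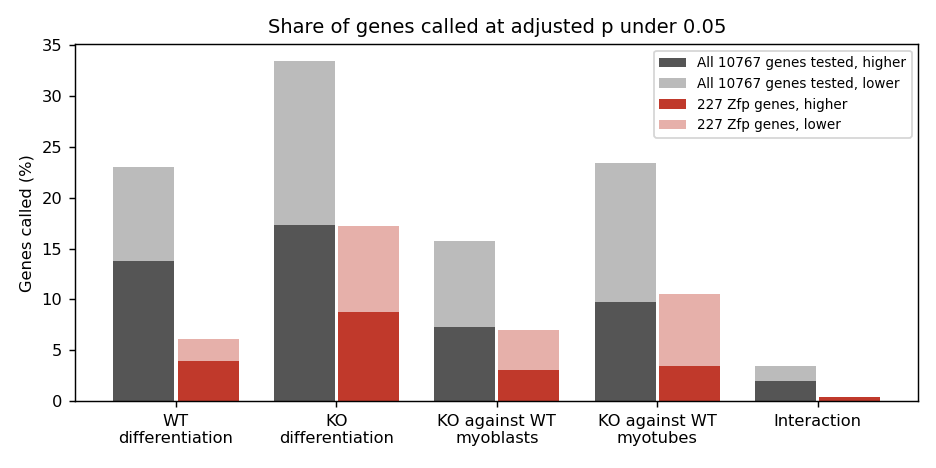
Percentage of genes called at an adjusted p below 0.05 in each comparison, for all 10767 genes tested (grey) and for the 227 Zfp genes (red), with higher calls in the darker and lower calls in the lighter part of each bar. The red bar is the shorter one in each pair, with 17.2% against 33.4% in the differentiation of Fam134bKO cells.

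The same order held with looser and with stricter settings. At an unadjusted p under 0.05, 37, 59, 43, 54 and 21 Zfp genes passed in the 4 comparisons and the interaction, beside 35.4%, 43.7%, 27.4%, 35.7% and 17.4% of all genes. The samples of both groups did not overlap for 29 Zfp genes in WT differentiation (12.8% against 28.0% of all genes), 30 in Fam134bKO differentiation (13.2% against 27.4%), 46 between myoblasts (20.3% against 26.8%) and 20 between myotubes (8.81% against 19.4%). Among genes that reached a normalised count of 50 in at least 4 samples, 12 of 95 Zfp genes were called in WT differentiation (12.6% against 27.3% of 7694 such genes), 23 in Fam134bKO differentiation (24.2% against 37.3%), 9 between myoblasts (9.47% against 16.7%), 10 between myotubes (10.5% against 24.5%) and 1 for the interaction (1.05% against 4.69%). The summed level of the Zfp genes stayed in a narrow range, from 14004 to 14902 normalised reads in WT myoblasts, from 13726 to 14844 in WT myotubes, from 13845 to 14638 in Fam134bKO myoblasts and from 13418 to 15029.5 in Fam134bKO myotubes. These ranges overlap in each pair of groups. The 3 genes with the most reads, not corrected for length, were Zfp706, Zfp622 and Zfp207. Zfp706 averaged 1529 ± 278, 1465 ± 215, 1409 ± 89.5 and 1068 ± 209 normalised reads in WT myoblasts, WT myotubes, Fam134bKO myoblasts and Fam134bKO myotubes, and it was called in none of the comparisons.

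Of the 227 genes, 63 were called in at least 1 of the 4 comparisons of groups (27.8%, against 52.9% of all genes tested) and 164 in none. In the plot of the called genes by sample, Zfp810 and Zfp422 stand apart as the genes with no reads in Fam134bKO myoblasts.

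**Figure D2:**
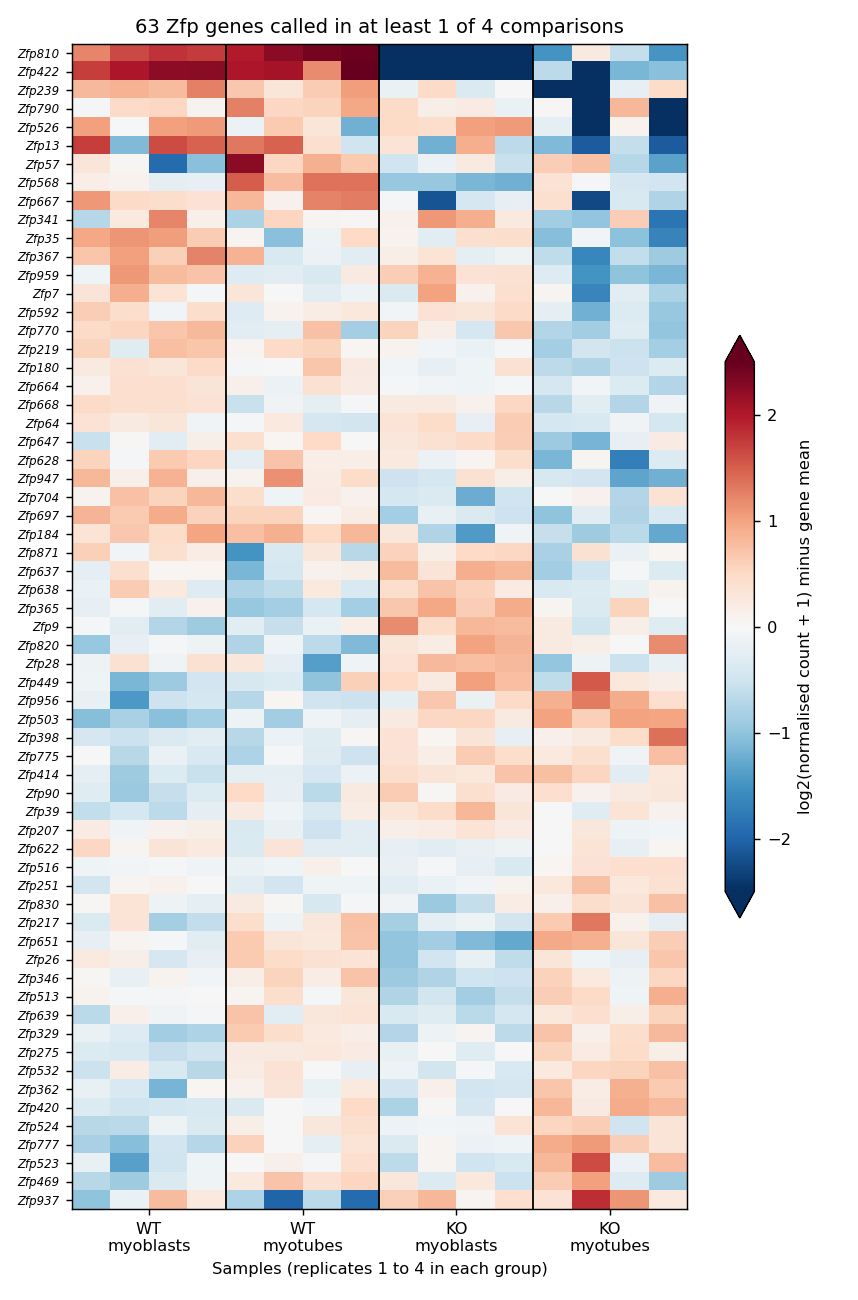
The 63 Zfp genes called in at least 1 of 4 comparisons (rows, ordered by average linkage) in each of the 16 samples (columns, by group, with KO for Fam134bKO), coloured by log2(normalised count + 1) minus the mean of the gene over all samples, red above and blue below it. Zfp810 and Zfp422, in the top rows, have 0 reads in all 4 Fam134bKO myoblast samples, and values beyond the ends of the scale take the end colours.

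Among the largest differences between genotypes were those of Zfp422 and Zfp810, whose transcripts were not detected in Fam134bKO myoblasts. Zfp422, also known as Krox-26, encodes a protein with 5 fingers and no KRAB letters on chromosome 6 (GRCm38, 116624016 to 116628999). Its normalised counts were 19.4, 24.1, 28 and 28.5 in WT myoblasts and 24.2, 25.2, 13 and 33.7 in WT myotubes. Each of the 4 Fam134bKO myoblast samples had 0 reads, and the Fam134bKO myotubes had 2.9, 0, 1.8 and 2.0 normalised reads. No Fam134bKO sample overlapped a WT sample at either stage. Against the limit of 3 reads per sample, Zfp422 was at least 9.79-fold lower in Fam134bKO myoblasts (adjusted p = 1.3e-07, limma) and at least 6.01-fold lower in Fam134bKO myotubes (adjusted p = 2.8e-05). It shares 11.2% of its 31-base stretches with another gene. Its difference between Fam134bKO myotubes and myoblasts was called as well (adjusted p = 0.041), yet both groups were at or under 3 reads and no fold is given, and the call was lost without WT myoblasts 1, 2, 3 or 4, WT myotubes 4, Fam134bKO myoblasts 1, 2, 3 or 4 or Fam134bKO myotubes 1, 3 or 4 (adjusted p up to 0.11).

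Zfp810 encodes a KRAB protein with 10 fingers on chromosome 9 (GRCm38, 22276748 to 22307648). Its normalised counts were 18.5, 25.1, 28 and 26.7 in WT myoblasts and 31.9, 38.7, 42.8 and 44.6 in WT myotubes. All 4 Fam134bKO myoblast samples again had 0 reads, and the Fam134bKO myotubes had 1.94, 8.76, 4.5 and 2.0. The genotypes were fully apart at both stages. Zfp810 was at least 9.62-fold lower in Fam134bKO than in WT myoblasts (adjusted p = 2e-08) and lower by a log2 fold change of -3.11 ± 0.41 (SE) in myotubes (adjusted p = 1.5e-05). With differentiation of the Fam134bKO cells it was at least 1.68-fold higher (adjusted p = 0.00025). The nearest other Zfp gene, Zfp809 at 22225714 to 22243354 on the same chromosome, had 26 to 30.3 normalised reads in WT and 17.4 to 25 in Fam134bKO myoblasts and was called in none of the comparisons. The nearest measured Zfp genes to Zfp422 on chromosome 6 were Zfp637 (117841180 to 117845956) and Zfp239 (117862100 to 117873291), neither of them called between myoblasts. Zfp239 was nonetheless lower without overlap in Fam134bKO myoblasts, at 12.1 to 22.4 against 28.0 to 39.2 normalised reads (log2 fold change -0.94 ± 0.63, adjusted p = 0.36). Between myotubes Zfp239 was called lower, with 25.9, 19.8, 25.1 and 33.7 normalised reads in WT and 1.94, 0, 13.5 and 22 in Fam134bKO samples (adjusted p = 0.013, and adjusted p = 0.066 when only the myotube samples were fitted).

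The stretch from 250 bases before to 50 bases after the start of transcription is shown for Zfp422 and Zfp810, the genes without reads in Fam134bKO myoblasts, for Zfp503, the called gene with the most positive fold change there, and for Zfp651, the gene whose differentiation differed between genotypes. Sequences are from RefSeq on GRCm38.p6, where 184 of the 227 genes had a window, and each reads 5′ to 3′ on the strand of the gene. The windows are chr6:116628652-116628951 (minus strand) for Zfp422, chr9:22307589-22307888 (minus strand) for Zfp810, chr14:21989552-21989851 (minus strand) for Zfp503 and chr9:121759783-121760082 (plus strand) for Zfp651. The RefSeq start of Zfp422 lies inside the gene bounds given above, and so does its whole window. Capitals mark matches to CAGCTG, letters of the E-box bound by MyoD, which read the same on both strands. A longer motif, that of the YY1 site, was searched on both strands as well.
Zfp422: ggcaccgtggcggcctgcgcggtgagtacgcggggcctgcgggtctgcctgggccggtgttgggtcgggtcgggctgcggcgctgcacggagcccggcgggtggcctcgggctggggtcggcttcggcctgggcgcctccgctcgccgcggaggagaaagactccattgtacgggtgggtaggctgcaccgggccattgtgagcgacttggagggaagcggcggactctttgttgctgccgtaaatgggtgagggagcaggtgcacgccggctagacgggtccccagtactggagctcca
Zfp810: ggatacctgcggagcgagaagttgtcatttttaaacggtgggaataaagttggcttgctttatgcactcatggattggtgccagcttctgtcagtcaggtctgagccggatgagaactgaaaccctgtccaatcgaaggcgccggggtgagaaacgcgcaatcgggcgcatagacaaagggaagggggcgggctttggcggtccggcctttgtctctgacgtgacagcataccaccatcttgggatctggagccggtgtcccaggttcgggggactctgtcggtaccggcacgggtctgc
Zfp503: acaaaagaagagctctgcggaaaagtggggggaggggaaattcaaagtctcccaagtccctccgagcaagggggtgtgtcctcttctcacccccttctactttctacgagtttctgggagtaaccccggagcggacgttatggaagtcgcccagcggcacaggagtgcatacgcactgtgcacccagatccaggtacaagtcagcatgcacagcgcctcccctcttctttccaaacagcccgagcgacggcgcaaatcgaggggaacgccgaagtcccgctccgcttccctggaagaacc
Zfp651: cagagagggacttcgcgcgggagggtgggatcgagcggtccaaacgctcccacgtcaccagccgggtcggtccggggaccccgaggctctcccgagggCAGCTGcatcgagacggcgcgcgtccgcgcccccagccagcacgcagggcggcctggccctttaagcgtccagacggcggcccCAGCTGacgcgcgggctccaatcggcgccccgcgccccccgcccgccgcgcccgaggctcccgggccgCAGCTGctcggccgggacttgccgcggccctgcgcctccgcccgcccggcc

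Zfp651 held CAGCTG 3 times, beginning 152, 69 and 1 bases before the start, and the other 3 windows shown held neither motif. Of the windows read but not shown, the 3 of Zfp57 held CAGCTG 0, 1 and 2 times. Those of Zfp526 and Zfp937 held neither motif. CAGCTG occurred in 16.1% of the first windows of all 27025 genes and in 18.5% of those of the Zfp genes. The YY1 motif occurred in 1.07% and 4.89%. CG dinucleotides numbered 32 in the window of Zfp422, 20 in that of Zfp810, 19 in that of Zfp503 and 46 in that of Zfp651, where the median was 7 over all genes and 16 over the Zfp genes. A match is a description of letters and not of binding.

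Zfp503 and Zfp703 belong to the NET family of transcriptional co-repressors. Normalised counts of Zfp503 were 56.3, 67.5, 57 and 65.9 in WT myoblasts and 140.0, 170.2, 171 and 140.2 in Fam134bKO myoblasts. In WT myotubes they were 109, 64.8, 112 and 100.1, and in Fam134bKO myotubes 239, 181, 241 and 238. Fam134bKO samples were above WT samples at both stages without overlap. The log2 fold change was 1.32 ± 0.19 in myoblasts (adjusted p = 2.2e-05) and 1.23 ± 0.19 in myotubes (adjusted p = 7.4e-05), and both calls held when any 1 sample was left out. Zfp503 also rose with differentiation, by 0.61 ± 0.19 in WT cells (adjusted p = 0.023) with overlapping groups and by 0.53 ± 0.19 in Fam134bKO cells (adjusted p = 0.035). The rise in WT was lost without WT myoblasts 1 or 3 or WT myotubes 1, 3 or 4 (adjusted p up to 0.077), and that in Fam134bKO cells without Fam134bKO myoblasts 1 or 4 or Fam134bKO myotubes 1, 3 or 4 (adjusted p up to 0.097). Zfp703 averaged 188 ± 11.7, 206 ± 50.8, 273 ± 58.2 and 225 ± 52.6 normalised reads in WT myoblasts, WT myotubes, Fam134bKO myoblasts and Fam134bKO myotubes and was called in none of the comparisons.

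Zfp568, Zfp57, Zfp445 and Zfp809 are KRAB zinc finger genes with known targets. Zfp568 represses a placental promoter of Igf2, and it was called in all 4 comparisons of groups. Its normalised counts were 106, 101, 80.1 and 82 in WT myoblasts and 272, 163, 244 and 245 in WT myotubes, a log2 fold change of 1.30 ± 0.21 (adjusted p = 0.00015). In Fam134bKO cells they rose from 49, 49, 42.5 and 40.9 to 123, 91.9, 71.1 and 67.9, a log2 fold change of 0.91 ± 0.21 (adjusted p = 0.0022). Fam134bKO samples were below WT samples without overlap, by -1.004 ± 0.21 in myoblasts (adjusted p = 0.0017) and by -1.39 ± 0.21 in myotubes (adjusted p = 7.3e-05). All 4 calls held when any 1 sample was left out, and the difference between both courses of differentiation was not called (interaction -0.39 ± 0.30, adjusted p = 0.54).

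Zfp57, which protects the DNA methylation of imprinted loci, was near the counting limit and passed the threshold only with the samples of WT myotubes, where it was highest. It had 8.3, 6.75, 1.0 and 2.67 normalised reads in WT myoblasts and 35.4, 9.9, 13 and 10.9 in WT myotubes. The groups did not overlap, WT myotubes 1 was far above the other 3, and the log2 fold change was 1.74 ± 0.57 (adjusted p = 0.031). The call was lost without WT myoblasts 3 or 4 or WT myotubes 1 or 3 (adjusted p up to 0.14). In Fam134bKO cells Zfp57 had 4.37, 5.81, 7.81 and 4.17 normalised reads in myoblasts and 10.6, 11.7, 3.6 and 2.0 in myotubes, which overlap. Zfp445, which shares this role, averaged 46.9 ± 11.8, 61.8 ± 16, 40.7 ± 14.4 and 43.3 ± 13.3 in the 4 groups, and neither it nor Zfp809, a silencer of retroviruses in embryonic cells, was called in a comparison.

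Zfp365, a protein that binds Disc1, was higher in Fam134bKO cells and lower in myotubes. Normalised counts were 70.1, 79.1, 67 and 87.3 in WT myoblasts and 41.4, 44.1, 59.5 and 44.6 in WT myotubes. In Fam134bKO myoblasts they were 129, 159, 124 and 155, and in Fam134bKO myotubes 84.2, 62.7, 119.7 and 79.9. The groups did not overlap in any of the 4 comparisons. The genotype difference was 0.89 ± 0.21 in myoblasts (adjusted p = 0.0039) and 0.83 ± 0.21 in myotubes (adjusted p = 0.0056). The call between myotubes was lost when only the myotube samples were fitted (adjusted p = 0.05). With differentiation Zfp365 changed by -0.67 ± 0.21 on the log2 scale in WT (adjusted p = 0.022) and by -0.73 ± 0.21 in Fam134bKO cells (adjusted p = 0.0091). The first of these calls was lost without WT myoblasts 2 or 4 or WT myotubes 1 or 4 (adjusted p up to 0.076), and the second with both shallow Fam134bKO myotube samples left out (log2 fold change -0.485, adjusted p = 0.11). The second was also lost with sample weights (-0.515, adjusted p = 0.061).

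Zfp651 was the 1 Zfp gene whose course of differentiation differed between genotypes. It had 75.7, 91.6, 84.1 and 72.2 normalised reads in WT myoblasts and 137, 107, 104 and 144 in WT myotubes. In Fam134bKO cells it went from 43.7, 47.3, 39.9 and 35 in myoblasts to 169, 162, 108 and 134 in myotubes. The myoblast groups were apart and the myotube groups overlapped. Its log2 fold change with differentiation was 0.59 ± 0.19 in WT (adjusted p = 0.032) and 1.75 ± 0.19 in Fam134bKO cells (adjusted p = 5.3e-07), a difference of 1.16 ± 0.27 (adjusted p = 0.019). Between genotypes it was lower in Fam134bKO myoblasts, by -0.95 ± 0.19 (adjusted p = 0.0012), while in myotubes the difference was 0.21 ± 0.19 (adjusted p = 0.46). The interaction was lost without WT myotubes 3 or Fam134bKO myoblasts 4 (adjusted p up to 0.0502), and the rise in WT without WT myoblasts 1, 3 or 4 or WT myotubes 1 or 4 (adjusted p up to 0.1).

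**Figure D3:**
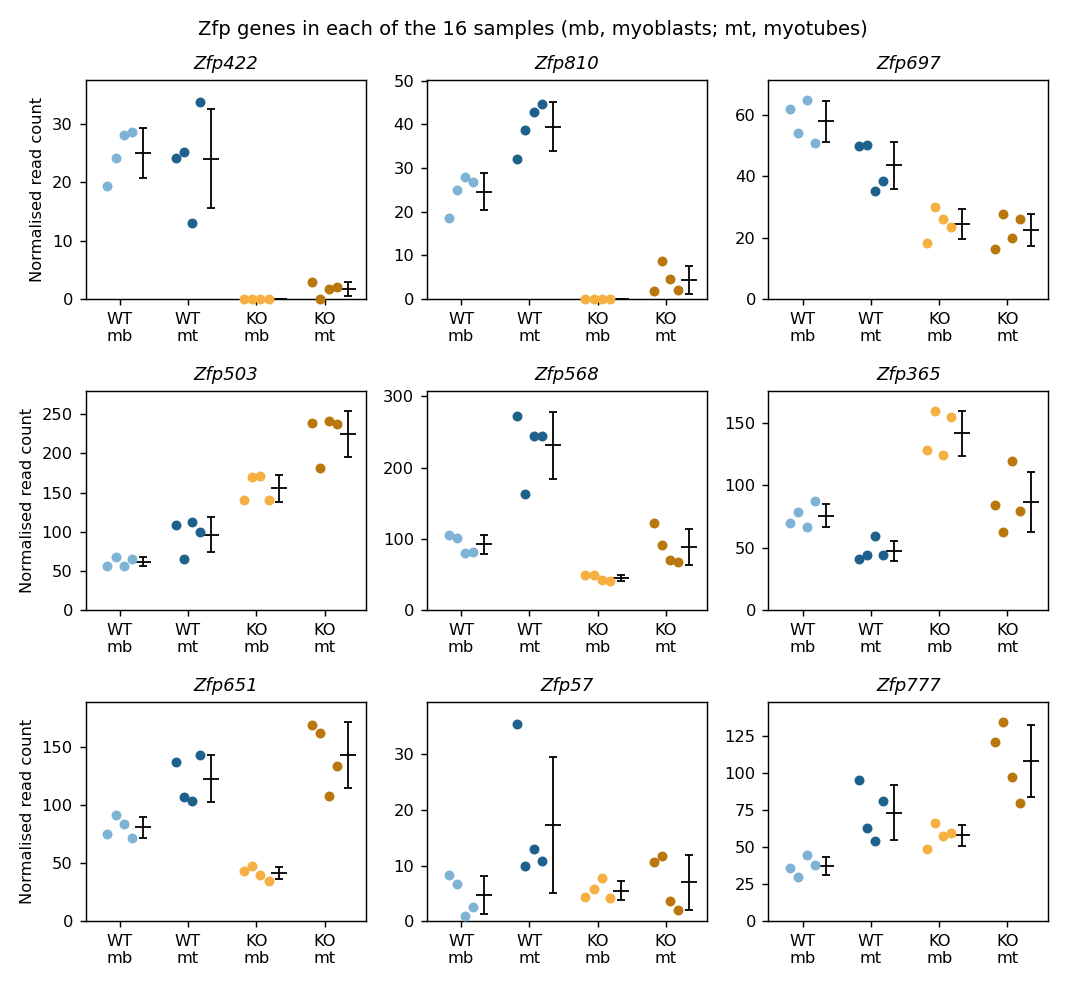
Normalised read counts of 9 Zfp genes in the 4 samples of WT myoblasts (WT mb), WT myotubes (WT mt), Fam134bKO myoblasts (KO mb) and Fam134bKO myotubes (KO mt), each point 1 sample, with mean and SD beside the points. Zfp422 and Zfp810 lie at 0 in all 4 Fam134bKO myoblast samples, Zfp503 lies above WT at both stages, and Zfp568 rises with differentiation from a lower level in Fam134bKO cells.

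Among genes linked to muscle and to fat, Zfp697, an RNA-binding protein of regenerating muscle, was lower in Fam134bKO cells. Its normalised counts were 61.8, 54, 65 and 50.8 in WT myoblasts against 18.4, 29.9, 26 and 23.4 in Fam134bKO myoblasts, and 50.1, 50.4, 35.3 and 38.6 in WT against 16.5, 27.7, 19.8 and 26 in Fam134bKO myotubes. The genotypes did not overlap at either stage. The log2 fold change was -1.23 ± 0.25 in myoblasts (adjusted p = 0.0011) and -0.94 ± 0.25 in myotubes (adjusted p = 0.0087), the latter with adjusted p = 0.061 when only the myotube samples were fitted. Zfp516, an activator of brown fat genes, went from a range of 92.6 to 117 normalised reads in Fam134bKO myoblasts to one of 124 to 162 in Fam134bKO myotubes (log2 fold change 0.51 ± 0.16, adjusted p = 0.015). That call was lost without Fam134bKO myoblasts 4 (adjusted p up to 0.056) and with both shallow samples left out (adjusted p = 0.087). It was also lost when only the Fam134bKO samples were fitted (adjusted p = 0.056). Zfp638, a nuclear RNA-binding cofactor of adipocyte differentiation, went from a range of 58.4 to 83.8 to one of 38.7 to 54 (-0.69 ± 0.26, adjusted p = 0.043), a call lost without WT myoblasts 3, WT myotubes 4, Fam134bKO myoblasts 1, 2 or 3 or Fam134bKO myotubes 1, 2 or 3 (adjusted p up to 0.098). Zfp106, an RNA-binding protein of nerve and muscle, averaged 271 ± 54.8, 289 ± 90.7, 227 ± 29.6 and 197 ± 30.7 in the 4 groups and was not called. Zfp521, a regulator of mesenchymal fate, had 6.0 to 11.6 normalised reads in WT and 0 to 3.34 in Fam134bKO myoblasts and was not called either (adjusted p = 0.089), and it passed the threshold only with the samples of its highest group. Zfp423, its close relative, had at most 10 reads in a sample and fell below the threshold.

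Genes of ribosomes, RNA and cell division came next. Zfp207 (BuGZ), a kinetochore protein, had 766, 632, 724 and 739 normalised reads in WT myoblasts and 511, 589, 468 and 552 in WT myotubes. These groups did not overlap, and the log2 fold change was -0.43 ± 0.14 (adjusted p = 0.029). The call was lost without WT myoblasts 1, 3 or 4 or WT myotubes 1, 3 or 4 (adjusted p up to 0.09). In Fam134bKO cells the change was -0.20 ± 0.14 (adjusted p = 0.28). Zfp622, a factor of 60S ribosomal subunit maturation, was lower in Fam134bKO than in WT myoblasts, at 574 to 636 against 729 to 999 normalised reads (log2 fold change -0.49 ± 0.17, adjusted p = 0.0481). That call was lost without WT myoblasts 1, 3 or 4, WT myotubes 3 or 4, Fam134bKO myoblasts 1, 2, 3 or 4 or Fam134bKO myotubes 1 (adjusted p up to 0.15). Zfp346 (JAZ), which binds double-stranded RNA, rose in Fam134bKO differentiation from 77.9, 86.3, 103 and 102 to 219.8, 174, 135 and 212 (log2 fold change 0.98 ± 0.19, adjusted p = 0.00035). It was lower in Fam134bKO than in WT myoblasts by -0.64 ± 0.19 (adjusted p = 0.021), a call lost without WT myoblasts 1 or 3 or Fam134bKO myoblasts 1 (adjusted p up to 0.078). Zfp598, the ubiquitin ligase of collided ribosomes, and Zfp36 (tristetraprolin), which marks AU-rich mRNA for decay, were not called. Normalised reads of Zfp36 were 13.8, 21.2, 16 and 18.7 in WT myoblasts, 4.32, 9.0, 5.58 and 10.9 in WT myotubes, 19.2, 13.3, 6.94 and 13.3 in Fam134bKO myoblasts and 7.75, 23.3, 9.0 and 0 in Fam134bKO myotubes.

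In all, 31 genes were listed for a known role and measured above the threshold. Of these, 3 were called higher and 2 lower in WT differentiation, 5 and 3 in Fam134bKO differentiation, 2 and 4 in Fam134bKO against WT myoblasts, and 2 and 2 in Fam134bKO against WT myotubes. These are shares of 16.1%, 25.8%, 19.4% and 12.9%, beside 23.0%, 33.4%, 15.8% and 23.4% of all genes tested. The promoter activator Zfp143, the SUMO ligase Zfp451, the ubiquitin ligase Zfp91, the splicing factor Zfp326, the histone methylation cofactor Zfp335 and the cohesin loader partner Zfp609 were called in none of them, and neither were Zfp131, Zfp148, Zfp281, Zfp292, Zfp462 and Zfp608. For Zfp131 the difference between myotubes was -0.83 ± 0.31 (adjusted p = 0.054), and for Zfp91 that of WT differentiation was -0.56 ± 0.20 (adjusted p = 0.0512). Zfp217, a co-repressor that binds CtBP, rose in Fam134bKO differentiation (0.87 ± 0.33, adjusted p = 0.0473) with overlapping groups of 18.4 to 30.4 and 28 to 84.6. That call was lost without WT myoblasts 1 or 4, WT myotubes 1, 3 or 4, Fam134bKO myoblasts 1, 2, 3 or 4 or Fam134bKO myotubes 1 or 2 (adjusted p up to 0.16). Zfp64 changed there by -0.65 ± 0.24 (adjusted p = 0.041), from a range of 38.2 to 68.4 to one of 31.9 to 41.4, and lost the call without WT myoblasts 1 or 3, Fam134bKO myoblasts 1, 2 or 4 or Fam134bKO myotubes 1, 2 or 4 (adjusted p up to 0.13).

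Among the genes named for the size of their change, Zfp777 and Zfp329 rose in both courses of differentiation. Zfp777 had 36, 29.9, 45 and 38.3 normalised reads in WT myoblasts and 95, 63, 53.9 and 81.2 in WT myotubes (log2 fold change 0.94 ± 0.23, adjusted p = 0.005). In Fam134bKO cells it went from 49, 66.4, 57.3 and 59.2 to 121, 134, 97.2 and 79.9 (0.87 ± 0.23, adjusted p = 0.0054). The groups were apart in each, and the calls held when any 1 sample was left out. Zfp329 rose by 0.91 ± 0.27 in WT (adjusted p = 0.02) and by 0.88 ± 0.27 in Fam134bKO cells (adjusted p = 0.017). Its calls were lost without WT myoblasts 3 or 4 or WT myotubes 1 (adjusted p up to 0.072) in WT and without Fam134bKO myoblasts 1 or 4 (adjusted p up to 0.065) in Fam134bKO cells. The latter was also lost when only the Fam134bKO samples were fitted (adjusted p = 0.056). Zfp469, whose human counterpart is mutated in brittle cornea syndrome, had 24.1 to 42.8 normalised reads in WT myoblasts and 53.5 to 74.7 in WT myotubes (0.97 ± 0.34, adjusted p = 0.041). This call was lost without WT myoblasts 1, 2 or 3 or WT myotubes 1, 2, 3 or 4 (adjusted p up to 0.11).

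Lower in WT myotubes were Zfp35 and Zfp668. Zfp35 went from 42.4, 47.3, 45 and 33.9 to 22.4, 9.9, 19.5 and 30.7 (log2 fold change -1.08 ± 0.36, adjusted p = 0.033), groups that did not overlap, and in Fam134bKO cells it changed by -1.12 ± 0.36 (adjusted p = 0.02). The calls were lost without WT myoblasts 1, 2 or 3 or WT myotubes 1, 2 or 3 (adjusted p up to 0.1) in WT and without Fam134bKO myoblasts 3 or 4 or Fam134bKO myotubes 4 (adjusted p up to 0.06) in the knockout. The WT call was also lost with no filter (adjusted p = 0.059). That in the knockout was lost when only the Fam134bKO samples were fitted (adjusted p = 0.058). Zfp668 went from a range of 87.3 to 94.1 to one of 45.8 to 66.4 in WT (-0.64 ± 0.20, adjusted p = 0.026) and from a range of 72.9 to 96.8 to one of 40.5 to 63.9 in Fam134bKO cells (-0.71 ± 0.20, adjusted p = 0.0091), without overlap. In WT the call was lost without WT myoblasts 1, 2, 3 or 4 or WT myotubes 1 or 3 (adjusted p up to 0.095). Exons of Zfp668 overlap another coding gene over 8.97% of their bases, and the deposited counts are not stated to use strand.

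In Fam134bKO differentiation, besides Zfp810 and Zfp651, the largest increases with groups apart were those of Zfp513, Zfp420 and Zfp346. Zfp513 rose from 64.7, 78.9, 59 and 71.7 to 167, 153, 101 and 206 (log2 fold change 1.14 ± 0.20, adjusted p = 0.00015), beside 105 to 116 in WT myoblasts and 105 to 149 in WT myotubes, which overlap. Its level in Fam134bKO myoblasts differed from that in WT myoblasts by -0.68 ± 0.20 (adjusted p = 0.023), a call lost without WT myoblasts 1 or 4 or Fam134bKO myoblasts 1 or 3 (adjusted p up to 0.077). Zfp420 rose by 0.999 ± 0.28 (adjusted p = 0.0091), from a range of 13.1 to 24.1 to one of 27.7 to 45.9. Exons of Zfp513 overlap another coding gene over 6.58% of their bases.

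The largest decreases there with groups apart were those of Zfp526, Zfp959, Zfp637, Zfp28 and Zfp367. Zfp637 fell from 115, 83.8, 126 and 118 normalised reads in Fam134bKO myoblasts to 35.8, 46.7, 64.8 and 52 in myotubes (log2 fold change -1.15 ± 0.27, adjusted p = 0.0022). The groups were apart, and the call held when any 1 sample was left out. In WT cells its change was -0.40 ± 0.27 (adjusted p = 0.29), with 29.4 to 73.3 normalised reads in myotubes. Zfp959 changed by -1.54 ± 0.37 (adjusted p = 0.0028) and Zfp28 by -1.14 ± 0.35 (adjusted p = 0.015), both without overlap, and these genes share 36.8% and 21.4% of their 31-base stretches with other genes.

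Some calls rested on the shallow samples. In Fam134bKO differentiation, leaving out both of them ended the calls of Zfp638 (adjusted p = 0.057), Zfp64 (adjusted p = 0.13) and Zfp217 (adjusted p = 0.08). Zfp526 had 8.3 to 13.3 normalised reads in Fam134bKO myoblasts and 4.84, 0, 6.3 and 0 in Fam134bKO myotubes, the zeros being samples 2 and 4. Its log2 fold change of -2.19 ± 0.61 (adjusted p = 0.009) became -0.832 (adjusted p = 0.21) without them. Zfp526 passed the threshold only with the samples of WT myoblasts, its highest group. Zfp367 changed by -0.97 ± 0.34 (adjusted p = 0.034), and without both shallow samples the value was -0.651 (adjusted p = 0.18). Its call was also lost without Fam134bKO myoblasts 1, 2 or 4 or Fam134bKO myotubes 2 (adjusted p up to 0.09). Between myotubes of the genotypes, Zfp13 was lower, with 9.5, 10.8, 4.65 and 1.98 in WT and 0.968, 0, 1.8 and 0 in Fam134bKO samples, at least 1.69-fold (adjusted p = 0.028). Without both shallow samples the fit gave adjusted p = 0.17, and the call was lost without WT myotubes 1, 2 or 3 or Fam134bKO myotubes 2 or 4 (adjusted p up to 0.08). Zfp13 too passed the threshold only with WT myoblasts, its highest group.

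In Fam134bKO myoblasts, Zfp9, Zfp449, Zfp39 and Zfp414 were higher than in WT, after Zfp503. Zfp9 had 26.8, 22.2, 16 and 14.3 normalised reads in WT myoblasts and 63, 38.2, 49.4 and 48.4 in Fam134bKO myoblasts (log2 fold change 1.31 ± 0.28, adjusted p = 0.002). In myotubes it had 18 to 30.7 in WT and 19 to 31.9 in Fam134bKO samples, a difference of 0.11 ± 0.28 (adjusted p = 0.83), and the interaction was -1.20 ± 0.40 (adjusted p = 0.11). Zfp414, which shares 20.3% of its 31-base stretches with another gene, was higher by 0.94 ± 0.21 (adjusted p = 0.0035), at 110.2 to 151 against 49.2 to 77.5. Zfp449 and Zfp39 were higher by 1.28 ± 0.43 (adjusted p = 0.045) and 0.96 ± 0.30 (adjusted p = 0.029). The call of Zfp449 was lost without WT myoblasts 2, 3 or 4, WT myotubes 2, Fam134bKO myoblasts 1, 3 or 4 or Fam134bKO myotubes 3 (adjusted p up to 0.13) and that of Zfp39 without WT myoblasts 1, 2 or 3 or Fam134bKO myoblasts 1, 2 or 3 (adjusted p up to 0.11). Lower, beside Zfp422, Zfp810, Zfp697 and Zfp568, was Zfp704, a gene induced by glucocorticoids, with 34.1, 54, 48 and 57.9 in WT and 23.6, 24.9, 13 and 22.5 in Fam134bKO myoblasts (-1.18 ± 0.29, adjusted p = 0.0056).

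Between myotubes of the genotypes, Zfp937, Zfp956 and Zfp820 were higher in Fam134bKO samples, beside Zfp503 and Zfp365. Zfp956 had 8.63, 15.3, 10.2 and 9.91 normalised reads in WT and 28.1, 37.9, 28.8 and 19.98 in Fam134bKO myotubes (log2 fold change 1.30 ± 0.35, adjusted p = 0.01). Zfp937 had 0.90 to 3.72 in WT and 7.99 to 26.3 in Fam134bKO myotubes (2.23 ± 0.49, adjusted p = 0.0022) and shares 45.3% of its 31-base stretches with other genes. Zfp820 was higher by 1.04 ± 0.33 (adjusted p = 0.027), a call lost without both shallow samples (0.761, adjusted p = 0.14) and without WT myotubes 1, 3 or 4 or Fam134bKO myotubes 4 (adjusted p up to 0.094). Zfp184 was lower, at 2.0 to 3.87 against 9.29 to 12.6 (-1.60 ± 0.42, adjusted p = 0.0084), with adjusted p = 0.052 when only the myotube samples were fitted. Zfp937 and Zfp184 each passed the threshold only with the samples of their highest group, so their differences from that group were partly built in.

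The courses of differentiation of WT and Fam134bKO cells share no samples, and the genotype differences of myoblasts and of myotubes share none either. Of the 14 Zfp genes called in WT differentiation and the 39 called in Fam134bKO differentiation, 9 were called in both, which is 64.3% of the first list and 23.1% of the second, and all 9 moved the same way. They were Zfp275, Zfp329, Zfp503, Zfp568, Zfp651 and Zfp777, which rose, and Zfp35, Zfp365 and Zfp668, which fell. Zfp275 had 86.1 to 102 normalised reads in WT myoblasts and 148 to 155 in WT myotubes, and 103 to 129 and 142 to 189 in Fam134bKO cells, where its call was lost without Fam134bKO myoblasts 1 or 3 or Fam134bKO myotubes 1 or 3 (adjusted p up to 0.077). That call was also lost when only the Fam134bKO samples were fitted (adjusted p = 0.075). Across the 227 genes, which are not independent replicates, the log2 fold changes of both courses had a Pearson correlation of 0.435, where that over all 10767 genes tested was 0.735. Between myoblasts and between myotubes of the genotypes, 6 genes were called in both, 37.5% of the 16 and 25% of the 24, and again all in the same direction. Zfp503 and Zfp365 were higher and Zfp422, Zfp810, Zfp697 and Zfp568 were lower in Fam134bKO cells, and the correlation over the Zfp genes was 0.623, beside 0.625 over all genes. Genes called in both comparisons, and their directions, were not counted over all genes. Neither overlap is therefore shown to be particular to the Zfp genes.

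**Figure D4:**
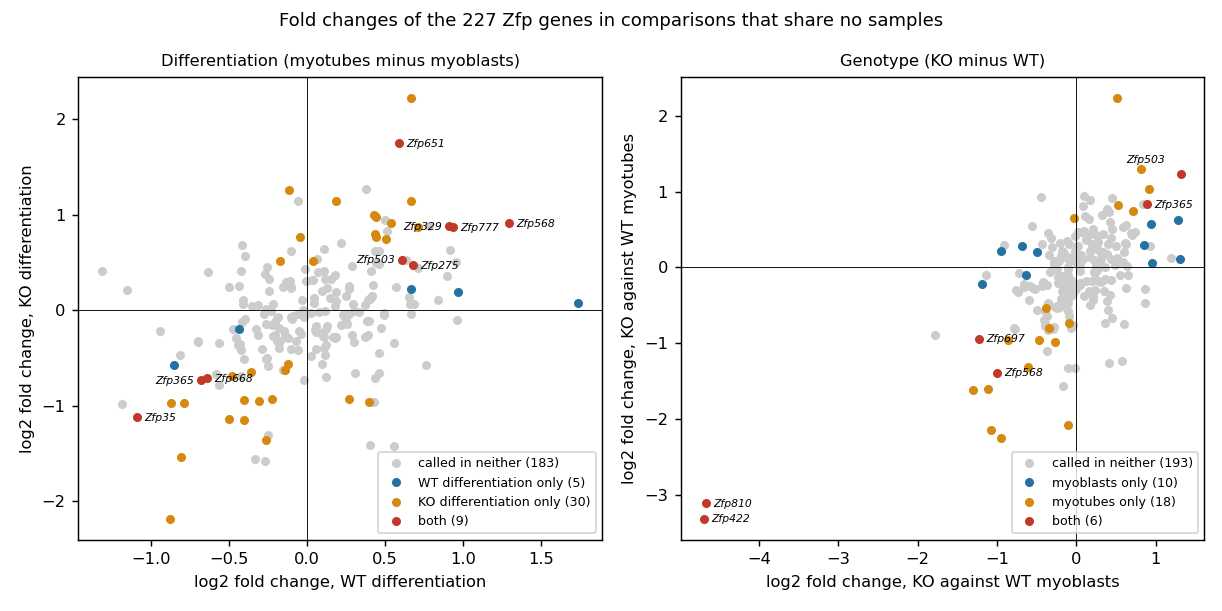
Log2 fold changes of the 227 Zfp genes in Fam134bKO over WT differentiation (left), and between genotypes in myotubes over those in myoblasts (right), each point 1 gene, coloured by the comparisons in which it was called. The 9 and the 6 genes called in both (red, named) lie in quadrants of equal sign, and Zfp422 and Zfp810 lie at the lower left of the right panel, where their fitted values depend on the added count of 1.

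Genes with and without KRAB letters were then set side by side. The letters are short fixed patterns, so a KRAB box spelled otherwise was counted as without. Of the 107 genes with KRAB letters, 3 were called higher and 1 lower in WT differentiation, 5 and 5 in Fam134bKO differentiation, 3 and 2 between myoblasts and 4 and 6 between myotubes. Of the 119 genes without them, 5 were called higher and 4 lower, 15 and 14, 4 and 7, and 4 and 10 in the same order. The shares called were 3.74%, 9.35%, 4.67% and 9.35% with KRAB letters and 7.56%, 24.4%, 9.24% and 11.8% without, all below the 23.0%, 33.4%, 15.8% and 23.4% of all genes. Median log2 fold changes of the genes with KRAB letters were 0.12, -0.04, 0.08 and -0.07, and those of the genes without -0.05, -0.07, -0.10 and -0.07. Summed normalised reads of the genes with KRAB letters averaged 2980 ± 79.7 in WT myoblasts, 3438 ± 322 in WT myotubes, 3190 ± 125 in Fam134bKO myoblasts and 3411 ± 269.9 in Fam134bKO myotubes. Among the 69 genes without KRAB letters and with over 5 fingers, 7.25%, 31.9%, 5.8% and 14.5% were called in the 4 comparisons, and among the 50 with 1 to 5 fingers 8%, 14%, 14% and 8%. The difference between these classes was not tested.

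**Figure D5:**
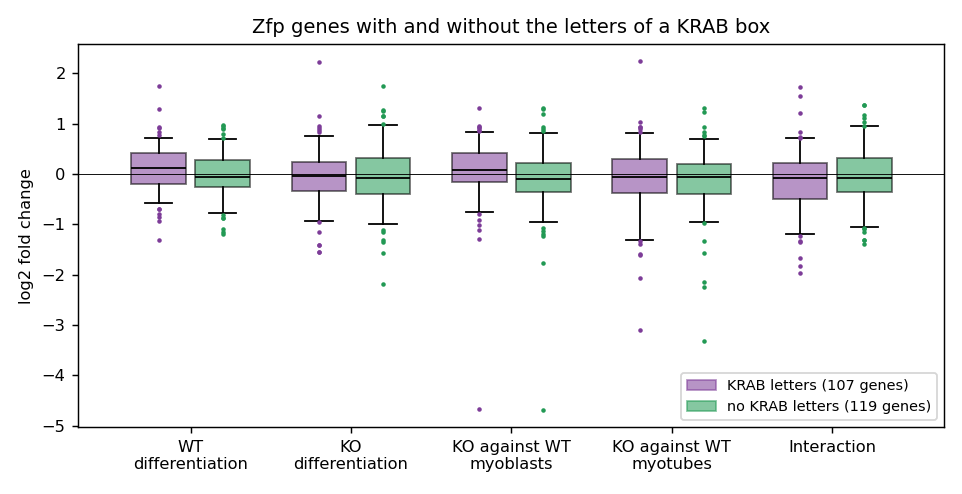
Log2 fold changes of the 107 Zfp genes with KRAB letters (purple) and the 119 without (green) in the 4 comparisons of groups and the interaction, as boxes from the lower to the upper quartile with the median as a line, whiskers to the 5th and 95th percentile and points beyond. The boxes of both classes straddle 0 in each comparison, and the lowest point of each class between myoblasts is Zfp810 (with) and Zfp422 (without).

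Clustered genes were counted by their position in the genome. The largest share called in a comparison of groups was that of the 6 genes on chromosome 15 from Zfp41 to Zfp647. In Fam134bKO differentiation, 1 of them was called higher and 2 lower (50%, against 33.4% of all genes). The chromosome 6 cluster that follows was picked from the 13 clusters after its values were seen. In the cluster of 7 genes on chromosome 6 from Zfp398 to Zfp775 (GRCm38, 47819266 to 48623227), all 7 had a positive log2 fold change between Fam134bKO and WT myoblasts, from 0.46 to 0.86, and none was called. Between myotubes, Zfp398, Zfp956 and Zfp775 of this cluster were called higher (0.82 ± 0.28, 1.30 ± 0.35 and 0.74 ± 0.26), 42.9% of the cluster beside 23.4% of all genes, and its median was 0.56 beside -0.07 for all genes. Zfp746 of the same cluster had a log2 fold change of -0.28 ± 0.40 there (adjusted p = 0.66). The calls of Zfp398 and Zfp775 were lost with both shallow samples left out (adjusted p = 0.16 and adjusted p = 0.24). That of Zfp398 was also lost without WT myotubes 1 or 3 or Fam134bKO myotubes 3 or 4 (adjusted p up to 0.14), and that of Zfp775 without WT myoblasts 3, WT myotubes 1, 3 or 4, Fam134bKO myoblasts 1 or 4 or Fam134bKO myotubes 1, 2 or 4 (adjusted p up to 0.11). The cluster of 16 genes on chromosome 17 from Zfp160 to Zfp13, 14 of them with KRAB letters, had 1 higher and 2 lower calls between myotubes and 0 calls (limma) in the other comparisons of groups. No cluster was tested as a unit.

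Partners and relatives of these proteins were counted from lists written for the purpose. Of 32 genes for KRAB co-repressors and heterochromatin, 1 was called higher and 5 lower in WT differentiation, 5 and 5 in Fam134bKO differentiation, 0 and 1 between myoblasts and 4 and 5 between myotubes. These shares of 18.8%, 31.2%, 3.12% and 28.1% stand beside 23.0%, 33.4%, 15.8% and 23.4% of all genes. Trim28, the co-repressor that KRAB boxes bind, averaged 1472 ± 37.7 normalised reads in WT myoblasts, 1044 ± 296 in WT myotubes, 1383 ± 282 in Fam134bKO myoblasts and 1126 ± 88.8 in Fam134bKO myotubes, with a log2 fold change of -0.53 ± 0.18 in WT differentiation (adjusted p = 0.034). In Fam134bKO differentiation Trim28 changed by -0.28 ± 0.18 (adjusted p = 0.24), and its interaction was not called (adjusted p = 0.65). Setdb1, the histone methyltransferase that Trim28 recruits, changed by -0.02 ± 0.36 in WT (adjusted p = 0.98) and -0.85 ± 0.36 in Fam134bKO differentiation (adjusted p = 0.075). Suv39h1, another histone methyltransferase, went from a range of 359.7 to 483 to one of 100.1 to 265 in WT (-1.38 ± 0.23, adjusted p = 0.00021) and from a range of 193 to 316 to one of 65.7 to 89.9 in Fam134bKO cells (-1.84 ± 0.23, adjusted p = 3.3e-06). Cbx3 and Fam208a were added after their values were seen. Cbx3 held the list's only called interaction (1.93 ± 0.51, adjusted p = 0.039), with -2.06 ± 0.36 in WT and -0.14 ± 0.36 in Fam134bKO differentiation. Fam208a rose in both courses, by 1.03 ± 0.28 (adjusted p = 0.01) and 1.10 ± 0.28 (adjusted p = 0.0041). Among relatives, 3 of 36 Zbtb genes were called higher and 0 lower in WT differentiation, 5 and 2 in Fam134bKO differentiation, 0 and 0 between myoblasts and 2 and 3 between myotubes. Of 10 Klf genes, 2 and 1, 2 and 1, 1 and 3, and 3 and 3 were called, and of 13 Zscan and Zkscan genes 0 and 0, 1 and 2, 0 and 0, and 0 and 1. Of 2 Znf genes, 1 was called higher in Fam134bKO differentiation and 1 between myotubes. Of 17 genes of Zfp36 relatives and CCCH proteins, 2 and 1, 3 and 1, 0 and 0, and 2 and 1 were called. As shares in the order of the comparisons, 8.33%, 19.4%, 0% and 13.9% of the Zbtb, 30%, 30%, 40% and 60% of the Klf, 0%, 23.1%, 0% and 7.69% of the Zscan and Zkscan, 0%, 50%, 0% and 50% of the Znf and 17.6%, 23.5%, 0% and 17.6% of the CCCH genes were called, to be read against the same shares of all genes. Zfp36l1 changed by 1.09 ± 0.24 in WT (adjusted p = 0.0025) and by 0.88 ± 0.24 in Fam134bKO differentiation (adjusted p = 0.0076).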

How the data were processed

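Per the labels and methods, libraries were made from total RNA by a digital mRNA sequencing service and sequenced from one end. The authors trimmed reads with bbduk, removed rRNA and phiX reads, aligned the rest with STAR 2.6.0a and counted genes with HTSeq (mm10 in the submitters' processing notes). The tool used for normalisation is not given in the sources used here. The deposited values are log2 values of normalised counts plus 1, and undoing the log2 gave whole multiples of 1 step per sample for 100% of values above 0 (tolerance 0.001), which recovered the reads. Recomputed median-ratio factors matched the deposited scaling. From these values, 1 limma 3.58.1 model (R 4.3.3) with 4 group means and a trended variance was fitted to the 10767 genes with a normalised count of at least 10 in at least 4 samples, and tested on simulated data. Where every sample of a group was at or under 3 reads, the fold is a lower bound taken from that limit, which covers counting error only. Gene models were GENCODE M21 (GRCm38), and promoter windows were RefSeq (GRCm38.p6).

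Genes were named as the 5 largest called changes in each direction of each comparison with groups apart, the called interactions, a role list, the 3 genes with most reads and those nearest the threshold. Promoters were set for the first gene of each direction, of which 3 are shown, and Zfp651 was added after its values were seen. That of Zfp35, the first of the lower genes in WT differentiation, was not read. Other genes named (Zfp275, Zfp239, Zfp398, Zfp746 and Zfp775) were chosen after their values were seen. The genes and lists were chosen with earlier results of these data known. Alternatives were pseudocounts of 0.5 and 5, no filter, a minimum of 50, a mean of at least 10, total, quantile and median-ratio scaling, a replicate block, only the groups compared, sample weights, limma voom on the recovered reads, stricter thresholds and each sample left out.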

Additional observations from a re-analysis of the deposited data

Results flagged for a closer look

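Zfp651 was marked because its change with differentiation differed between the genotypes in the test of the interaction, by 1.16 on the log2 scale.

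In 246 sets of 4 samples (62 named genes in 4 groups, without sets of equal values), 14 held a sample whose gap to the others passed Dixon's critical value for 4 samples, and chance gives about 1 in 20. Among WT myoblasts, the low samples were replicate 2 for Zfp13 (0.964 normalised reads, others 10.7 to 12.9) and for Zfp526 (5.79, others 12.9 to 13.4) and replicate 1 for Zfp131 (36.0, others 62.4 to 69.4), and replicate 2 was high for Zfp292 (172, others 126 to 132). Replicate 2 of the Fam134bKO myoblasts was low for Zfp148 (108, others 143 to 151), Zfp451 (159, others 209 to 220), Zfp462 (26.6, others 41.6 to 44.2) and Zfp608 (5.81, others 34.2 to 43.4). Also among Fam134bKO myoblasts, replicate 1 was low for Zfp28 (21, others 27.8 to 29.2) and replicate 3 for Zfp704 (13, others 22.5 to 24.9). In Fam134bKO myotubes, replicate 2 was low for Zfp503 (181, others 238 to 241) and replicate 1 for Zfp516 (124, others 156 to 162), and replicate 4 for Zfp746 (7.99, others 24.8 to 31). In WT myotubes, replicate 2 was high for Zfp622 (867, others 544 to 578).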

How the results depend on the processing

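The counts of called Zfp genes (14, 39, 16 and 24 in WT differentiation, Fam134bKO differentiation, myoblasts and myotubes, and 1 for the interaction) moved by over 1.5 times under the settings that follow. In WT differentiation, 9 were called with no filter, 24 with quantile normalisation, 58 with sample weights, 26 with only the groups compared, 3 at an adjusted p under 0.01, 3 at a log2 fold change of at least 1 and 29 with both shallow Fam134bKO myotube samples left out, a setting chosen after seeing the data. Shares of all genes tested moved as well, to 13.9%, 26.5%, 43.5%, 31%, 11.8%, 11.7% and 30.5% under these settings in turn. In Fam134bKO differentiation, 23 were called with a minimum of 50, 21 with only the groups compared, 16 at 0.01 and 11 at a log2 fold change of at least 1. All genes were called there at 37.3%, 25.6%, 20.6% and 18.5% in turn. Between myoblasts, 9 were called with a minimum of 50, 55 with sample weights, 36 with only the groups compared, 10 at 0.01, 8 at a log2 fold change of at least 1 and 31 without both shallow samples. For all genes the shares were 16.7%, 35%, 24.7%, 9.67%, 9.45% and 20.7%. Between myotubes, 10 were called with a minimum of 50, 8 with only the groups compared, 10 at 0.01 and 13 at a log2 fold change of at least 1. Beside these stood 24.5%, 14.5%, 12.5% and 12.8% of all genes. For the interaction, 2 were called with the replicate block, 9 with sample weights, 2 with limma voom, 2 without both shallow samples and 0 at 0.01 (limma, with 21 at an unadjusted p under 0.05). Here 3.32%, 11.3%, 3.28%, 3.68% and 1.31% of all genes were called. With the minimum of 50, only 95 Zfp genes were tested. Their shares called were 24.2%, 9.47% and 10.5% in Fam134bKO differentiation, myoblasts and myotubes, beside 17.2%, 7.05% and 10.6% of the 227.

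The split of higher and lower calls moved by over 10 points in these settings. In WT differentiation (9 and 5) it was 7 and 17 with quantile normalisation, 7 and 6 with the replicate block, 8 and 8 with limma voom and 3 and 0 at 0.01. In Fam134bKO differentiation (20 and 19) it was 16 and 24 with total scaling and 10 and 6 at 0.01. Between myoblasts (7 and 9) it was 4 and 8 with no filter, 3 and 6 with a minimum of 50, 10 and 8 with total scaling, 11 and 8 with limma voom and 17 and 14 without both shallow samples. Between myotubes (8 and 16) it was 17 and 10 with quantile normalisation. For the interaction (1 and 0) it was 6 and 3 with sample weights and 1 and 1 without both shallow samples.

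Leaving out 1 sample gave 4 to 22, 23 to 44, 10 to 21, 16 to 30 and 0 to 3 calls in the same order. The shares of all genes in these fits are not given here. The count moved by over 1.5 times in WT differentiation without WT myoblasts 1 (8), 3 (5) or 4 (6), WT myotubes 1 (4) or 4 (7) or Fam134bKO myotubes 2 (22) or 4 (22). It did so in Fam134bKO differentiation without Fam134bKO myoblasts 1 (25) or 4 (23), between myoblasts without Fam134bKO myoblasts 1 (10), and for the interaction without WT myotubes 2 (3) or 3 (0), Fam134bKO myoblasts 2 (3) or 4 (0) or Fam134bKO myotubes 3 (3) or 4 (2). Among the 62 Zfp genes rerun under the alternatives, 57 named by rule and 5 chosen after their values were seen, no called fold change reversed. Some calls were lost, however, also in fits of all samples. Stricter thresholds and single samples left out aside, the call of Zfp13 between myotubes held in 6 of 11 alternatives. Those of Zfp217 and Zfp367 in Fam134bKO differentiation held in 6 of 12. Zfp622 between myoblasts kept its call in 8 of 13 and Zfp469 in WT differentiation in 9 of 13. The genotype calls of Zfp503 and Zfp568 held in all 13 at both stages.

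Whether replicate numbers pair the samples was not tested. Deviations of same-numbered samples correlated at 0.0330 on average (24 pairs, 10 over 0.1) and those of the 72 other pairs at -0.0108 (17 over 0.1). With the number as a replicate block, 13, 40, 15 and 24 Zfp genes were called, beside 23.2%, 33.7%, 15.6% and 23.3% of all genes.

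The median Zfp gene had 17 to 42 reads per sample, which limits the precision of the low genes.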
